A study of Mus musculus with 6 samples.

Results

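Sites of accessible chromatin that respond to IL-4 were examined in mouse bone marrow-derived macrophages (BMDMs) by ATAC-seq, in which a transposase inserts sequencing adapters into open DNA. All 6 libraries came from wild-type C57BL/6 mice (C57BL/6J in the growth protocol), as BMDMs grown from marrow with L929-cell conditioned medium, and each group has 1 library. Untreated cells received nothing and IL-4 cells received 20 ng/ml IL-4 for 24 hours. DMSO cells received the vehicle alone, and DMSO + IL-4 cells received vehicle and the same IL-4 treatment. LatA + IL-4 cells received IL-4 with 1 μM latrunculin A, and MCSF + IL-4 cells received IL-4 with 100 ng/ml MCSF. Values given with added latrunculin A or with added MCSF are from those last 2 libraries. The age of the mice and whether the cultures shared an animal are not stated in the labels. The IL-4 response was read as 2 pairs that share no library. The vehicle-free pair is IL-4 against Untreated, and the DMSO pair is DMSO + IL-4 against DMSO. The members were the autosomal sites with a mean signal of at least 3.2 over the 6 libraries, 33476 of the 578591 sites in all. A further 500591 autosomal sites fell below this minimum, and 1973 sites past it lay on X or Y.

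IL-4 is a cytokine of type 2 immunity. It binds its receptor on macrophages and leads to phosphorylation of STAT6, a transcription factor that enters the nucleus and binds regulatory DNA, and macrophages exposed to it take on the alternatively activated state known from tissue repair and helminth infection. Sites of open chromatin are mostly promoters and enhancers, where transcription factors displace nucleosomes. Wide, strong sites are often promoters, and narrower sites include many distal enhancers. Sites are named here by position in the mm9 build. Gene annotation and sequence of that build were not used here, so no gene is attached to a site, known macrophage loci are not described, and the labelled cell type was not checked against marker genes.

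Signal is the read count of a site as CPM, with library sizes scaled by trimmed mean of M-values (TMM). Reads in sites numbered from 12387332 to 19889902 per library, and the members held 51.8% to 55.4% of them. The minimum of 3.2 stands for 39.9 reads in the shallowest library and 66.8 in the deepest. The median signal of the members was 4.12 in Untreated against 4.64 in IL-4, and 4.96 in DMSO against 4.97 in DMSO + IL-4. It was higher in LatA + IL-4, at 7.31, and in MCSF + IL-4, at 6.75. There were 3985 members with a mean of 3.2 to under 3.5, and 5220 sites were left out with a mean of 2.9 to under 3.2. The member closest to the minimum, chr2:20073515-20074597, had signals of 3.98 in Untreated against 3.37 in IL-4, 3.56 in DMSO against 3.13 in DMSO + IL-4, 1.98 with added latrunculin A and 3.19 with added MCSF. The closest site outside it, chr15:28249291-28249955, had 1.92, 2.92, 1.87, 2.00, 5.33 and 5.16 in the same order. The latter was carried toward the minimum by LatA + IL-4 and MCSF + IL-4.

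Sites called in one pair were called the same way in the other far more often than members in general. A site was called where its normalized reads, each with 1 added, had a ratio past 1.5-fold, and ratios are given on the log2 scale where so named. In the vehicle-free pair 7589 members rose past the threshold (22.7%) and 1838 were lower (5.49%). In the DMSO pair 4718 members were higher in DMSO + IL-4 (14.1%) and 3478 were lower (10.4%). There were 3572 members higher in both pairs (10.7%) and 794 lower in both (2.37%), while 310 were called in opposite directions (0.926%). More sites were thus higher than lower under the minimum over 6 libraries, an order that turned among sites called in both pairs when the minimum was set on the 2 libraries without IL-4, as given further on. Each ratio compares 2 libraries rather than 2 conditions.

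The pairs were also read in a single fit, added after seeing the data, with IL-4 and vehicle as terms, which treats the vehicle-free and the DMSO pair as repeats of the IL-4 effect and leaves 1 residual degree of freedom. At an adjusted p under 0.05 in edgeR's quasi-likelihood test with Benjamini-Hochberg adjustment over 576277 sites, 3090 members were higher and 541 lower with IL-4, where 1.63% of all sites fitted, most of them weaker than the members, were higher and 0.61% lower. It called 2722 of the 3572 sites higher in both pairs (76.2%) and 426 of the 794 lower in both (53.7%). The labels do not say whether the libraries came from separate cultures, so the spread in this fit may be technical.

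Of the sites higher in the vehicle-free pair, 47.1% (95% exact interval 45.9 to 48.2) were also higher in the DMSO pair, against 14.1% of all members. Read the other way, 75.7% (74.5 to 76.9) of the sites higher in the DMSO pair were higher in the vehicle-free pair, against 22.7% of all. Lower sites were shared as well. Of those lower in the vehicle-free pair 43.2% (40.9 to 45.5) were lower in the DMSO pair, against 10.4% of all members, and 22.8% (21.4 to 24.3) held in the reverse direction, against 5.49%. The lists overlapped in this way under other minimums too. A minimum set only by LatA + IL-4 and MCSF + IL-4 uses no library of the pairs. Both contain IL-4, however, so this minimum favours sites that are high with IL-4. Under it 85.9% of the sites called in both pairs were higher, against 81.8% with the minimum over 6 libraries. There 51.0% of the sites higher without vehicle were higher with DMSO, against 18.9% of all sites, and 44.8% of the lower ones were lower, against 10.5%. With the minimum over the 2 libraries without IL-4 these shares were 29.1% against 5.41% and 45.2% against 14.6%. Sites higher without vehicle were lower with DMSO in 2.66% of cases (2.31 to 3.05). These intervals count sites only, and sites of 1 library are not independent replicates. Across the members the log2 ratios of both pairs had a Pearson's r of 0.63 and a Spearman's rho of 0.61, given as a description over 33476 points that share their 4 libraries. In classes of rising signal r was 0.58 at 3.2 to under 5, 0.68 at 5 to under 10, 0.76 at 10 to under 20, 0.79 at 20 to under 50 and 0.72 at 50 or more. The vehicle comparisons, DMSO against Untreated and DMSO + IL-4 against IL-4, likewise share no library, and their r was 0.07. The minimum over 6 libraries lets in sites low in both controls and high with IL-4. Such sites can raise r between the IL-4 pairs and not between the vehicle comparisons. Both r are given under this minimum only, so nothing is read from their difference.

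**Figure D1:**
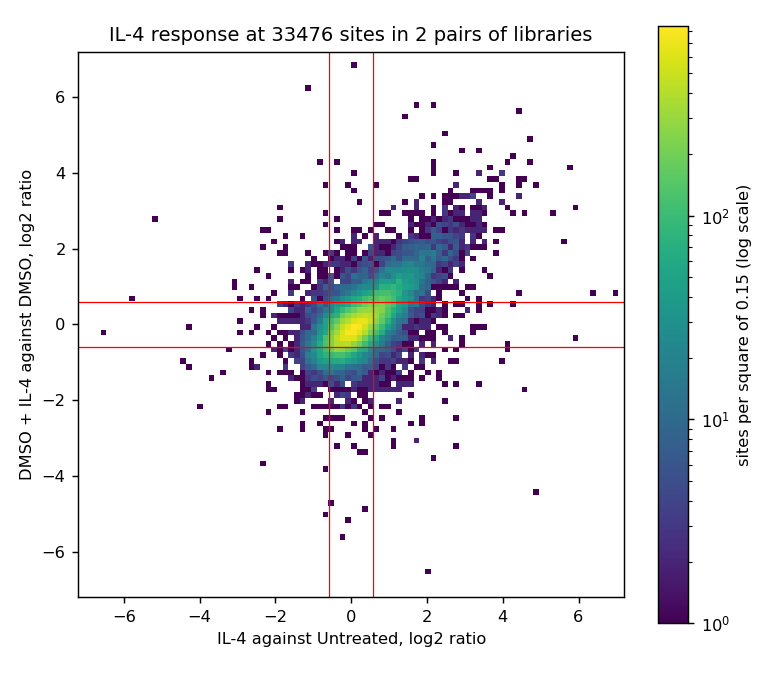
Log2 ratio of normalized reads at the 33476 members in the vehicle-free pair (x axis) and in the DMSO pair (y axis), coloured by the number of sites in each square on a log scale, with red lines at 1.5-fold. The cloud runs along the rising diagonal, and its upper right corner holds the 3572 sites higher in both pairs.

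The vehicle alone gave many calls at the same sites. In DMSO against Untreated 5834 members were higher (17.4%) and 696 lower (2.08%), and in DMSO + IL-4 against IL-4 2045 were higher (6.11%) and 1100 lower (3.29%). A call in 1 pair is therefore of a size seen between libraries that differ in vehicle only. The ratios of the pairs also differed in their centre, with a median over all members of 0.15 in the vehicle-free pair and -0.04 in the DMSO pair on the log2 scale. Of the called sites, 80.5% were higher in the vehicle-free pair and 57.6% in the DMSO pair. When the trend of each ratio with signal was removed, which sets the medians to 0, these shares were 61.7% and 60.8%, and 3274 sites were higher and 1178 lower in both pairs. Scaling by total reads outside the strongest sites put the vehicle-free share at 71.8%, and scaling by total reads in sites put the DMSO share at 66.1%.

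The excess of higher over lower sites depended on which libraries set the minimum signal and on the control. Of the 6 libraries averaged, 4 contain IL-4, and 2623 of the 3572 sites higher in both pairs (73.4%) had a mean below 3.2 in the 2 libraries without IL-4. Among sites called in both pairs 81.8% were higher. With the minimum applied to the 4 libraries of the pairs, 2266 sites were higher and 709 lower in both (76.2% higher). With the minimum applied to the 2 libraries without IL-4, which favours sites that are strong there, 949 were higher and 1116 lower (46.0% higher). In the single pairs the order then turned with DMSO, with 1552 higher and 4173 lower (27.1% higher), and did not turn without vehicle, with 3265 higher and 2469 lower (56.9% higher). This last minimum was chosen after seeing the data. Exchanging the controls of the pairs, also chosen after seeing the data, turned the order in 1 comparison, with 3822 higher and 5633 lower in IL-4 against DMSO (40.4% higher), while DMSO + IL-4 against Untreated had 9603 and 1390 (87.4% higher). The direction of the excess is thus not fixed by these data, whereas sites of both kinds were found under each minimum.

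Large changes also followed the minimum. Over 6 libraries, which lets in sites that are high only with IL-4, there were 1556 higher and 68 lower sites past 2-fold in both pairs, past 3-fold 550 and 8, past 4-fold 267 and 3, and past 8-fold 44 and none. With the minimum over the 2 libraries without IL-4, which lets in sites that are high only there, these counts were 184 and 190, 33 and 51, 3 and 27, and none and 3. Among the members, the sites higher in both pairs had a median signal of 1.96 in Untreated and 4.90 in IL-4, and of 2.45 in DMSO and 5.37 in DMSO + IL-4. Their median log2 ratio was 1.21 in the vehicle-free pair and 1.01 in the DMSO pair. The sites lower in both went from a median of 5.32 in Untreated to 2.96 in IL-4 and from 6.33 in DMSO to 3.29 in DMSO + IL-4, with median log2 ratios of -0.79 and -0.85. Both medians follow from the calls and are given as a description. For 3436 of the higher sites (96.2%) and 771 of the lower sites (97.1%) the 95% exact interval of the ratio of reads left out 1 in each pair, which covers counting error only. The sites were called on these same reads, so these shares too follow largely from the calls.

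LatA + IL-4 and MCSF + IL-4 enter neither pair, but they help to set the minimum signal and would be read against the same Untreated and DMSO libraries as the pairs, so their levels are given as a description. At the sites higher in both pairs their median signal was 7.10 with added latrunculin A and 7.74 with added MCSF, against 7.31 and 6.75 over all members. At the sites lower in both the medians were 6.69 and 5.46. All 4 IL-4 libraries were above both libraries without IL-4 at 8547 members (25.5%), and at 3455 of the 3572 higher sites, of which 2623 were below the minimum in the libraries without IL-4. All 4 were below both others at 1152 members (3.44%), of which 133 were among the 794 lower sites. MCSF + IL-4 was below Untreated and DMSO at 41.6% of the lower sites and LatA + IL-4 at 23.0%, against 14.9% and 12.7% of all members. Both were above both libraries without IL-4 at 66.5% of all members and both below at 9.2%. These libraries carry a further treatment, so they are not replicates of IL-4.

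The sites with the rises most secure against counting error were ranked by the limit nearest to 1 of their ratio's interval, the worse of the pairs. The interval holds no spread between cultures. This ranking favours sites that are low without IL-4, and each of the 8 was under the minimum of 3.2 in Untreated and DMSO and past it in the 4 IL-4 libraries. A site so low without IL-4 passes the minimum over 6 libraries only where IL-4 libraries are high. The position of the 4 IL-4 libraries above both controls is thus partly built in. At chr2:65387228-65387792 the normalized reads were 2.22 in Untreated and 2.70 in DMSO, from 3 reads each, and 82.5 in IL-4, 105 in DMSO + IL-4, 73.8 with added latrunculin A and 86.7 with added MCSF. The ratio of reads was 37.1 (12.3 to 184) in the vehicle-free pair and 38.9 (12.9 to 193) in the DMSO pair. The 4 IL-4 libraries lay close together and far above the other two. At chr9:100389029-100389778 normalized reads were 3.70 in Untreated, 0.901 in DMSO, 97.2 in IL-4, 96.5 in DMSO + IL-4, 139 with added latrunculin A and 80.8 with added MCSF. The DMSO value is a single read, so its ratio of 107 has an interval from 18.7 to 4288, while the vehicle-free ratio was 26.3 (10.9 to 82.7). Vehicle-free and DMSO pairs were nearly level at chr12:13416802-13417536, with 3.70 normalized reads in Untreated against 90.3 in IL-4, 5.40 in DMSO against 132 in DMSO + IL-4, 101 with added latrunculin A and 93.7 with added MCSF. The ratios there were 24.4 (10.1 to 77.0) and 24.5 (10.9 to 68.3).

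Several of these sites were not uniform across the 4 IL-4 libraries. The site chr14:18576052-18576610 had 3.70 normalized reads in Untreated against 120 in IL-4, 6.30 in DMSO against 145 in DMSO + IL-4, 141 with added latrunculin A and 57.4 with added MCSF, lowest of the 4 in MCSF + IL-4. The reverse was seen at chr3:65100908-65101528, with 5.18 in Untreated against 97.2 in IL-4, 5.40 in DMSO against 103 in DMSO + IL-4, 51.7 with added latrunculin A and 185 with added MCSF. In each case all 4 stayed well above both libraries without IL-4, which the minimum favours at such sites. At chr10:68188147-68188685 the value rose from 0.740 in Untreated, 1 read, to 92.3 in IL-4 and from 5.40 in DMSO to 105 in DMSO + IL-4, and 128 with added latrunculin A and 180 with added MCSF. A pair of stronger sites completed the group of 8. The first, chr7:113423106-113423910, had 11.8 in Untreated against 192 in IL-4, 18.01 in DMSO against 244 in DMSO + IL-4, 339 with added latrunculin A and 240 with added MCSF, with ratios of 16.3 (9.76 to 29.0) and 13.5 (8.53 to 22.7). The other, chr3:98934091-98934924, had 13.3, 182, 12.6, 239, 199 and 246 in the same order, with ratios of 13.6 (8.39 to 23.5) and 18.9 (11.02 to 35.3). These 8 sites were 539 to 834 bp wide.

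At 4 of the 6 sites with the fall most secure against counting error all 4 IL-4 libraries lay below both others. At chr14:7469269-7470388 normalized reads fell from 216 in Untreated to 66.7 in IL-4 and from 175 in DMSO to 39.6 in DMSO + IL-4, and 118 with added latrunculin A and 56.2 with added MCSF. The fall was 3.24-fold (2.48 to 4.28) without vehicle and 4.41-fold (3.02 to 6.63) with it. At chr10:115425618-115426895 the values were 113 in Untreated against 28.5 in IL-4, 92.8 in DMSO against 28.5 in DMSO + IL-4, 39.0 with added latrunculin A and 46.9 with added MCSF. The falls there were 3.98-fold (2.66 to 6.14) and 3.26-fold (2.06 to 5.37). A site on chromosome 5 was an exception. LatA + IL-4 reached 81.2 at chr5:115121669-115122898, between Untreated and DMSO, where Untreated had 112, IL-4 29.4, DMSO 43.2, DMSO + IL-4 8.66 and MCSF + IL-4 26.9. The 4 IL-4 libraries spread widely, but all below the others, at chr19:38105170-38105761, which had 137 in Untreated against 7.85 in IL-4, 205 in DMSO against 47.0 in DMSO + IL-4, 13.7 with added latrunculin A and 65.6 with added MCSF. Its fall was 17.4-fold (8.66 to 41.0) without vehicle, from 185 reads in Untreated and 8 in IL-4, and 4.37-fold (3.09 to 6.33) with it.

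The remaining pair of this group each had a library with a single read. At chr3:146334285-146335404 there were 110 normalized reads in Untreated against 20.6 in IL-4, 27.9 in DMSO against 1.24 in DMSO + IL-4, 73.8 with added latrunculin A and 119 with added MCSF. The DMSO + IL-4 value is 1 read, its fall of 22.6-fold has an interval of 3.76 to 919, and DMSO lay nearer to IL-4 than to Untreated. At chr1:184822937-184824839 there were 172 in Untreated against 35.3 in IL-4, 125 in DMSO against 37.1 in DMSO + IL-4, 110 with added latrunculin A and 1.17 with added MCSF, the last being 1 read, and all 4 IL-4 libraries were again below both others. In the pairs, which do not use that library, the fall was 4.86-fold (3.41 to 7.11) without vehicle and 3.37-fold (2.26 to 5.18) with it. Among all members, 156 had under 10 reads in at least 1 of the 4 libraries of the pairs, and of these 103 were higher in both pairs, 11 were lower in both and 21 were called in opposite directions, against 10.7%, 2.37% and 0.926% of all members. A member with so few reads in a control had to be high elsewhere to pass the minimum.

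**Figure D2:**
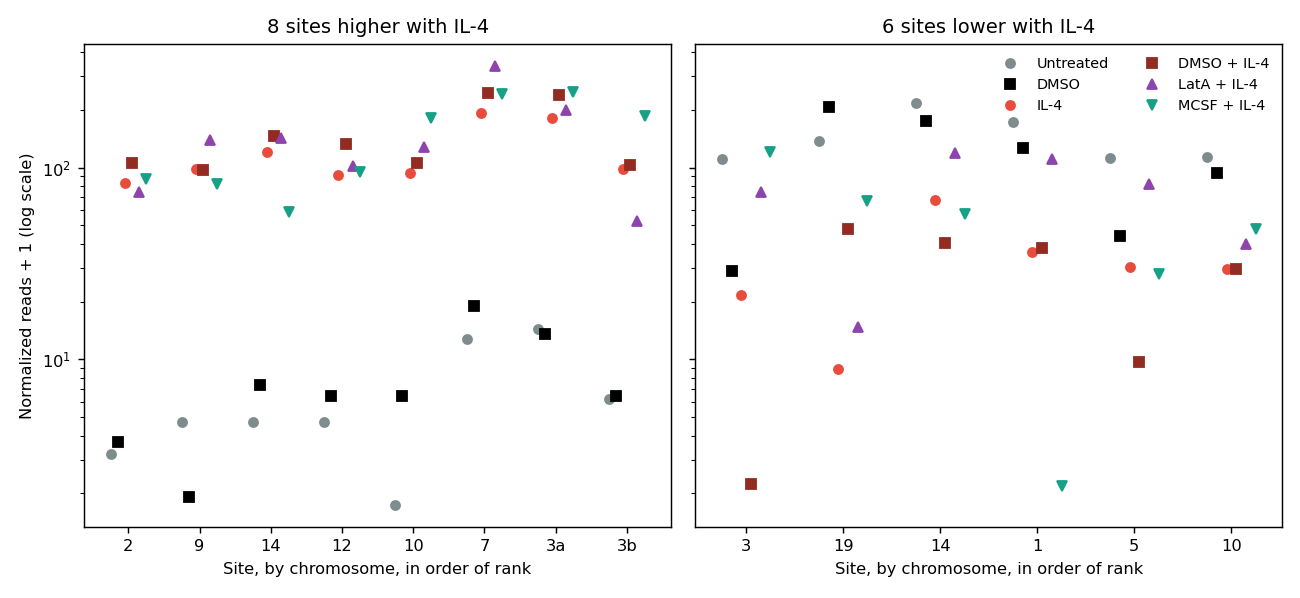
Normalized reads plus 1 (log scale) in each of the 6 libraries at the 8 sites with the rise most secure against counting error (left) and the 6 with such a fall (right), named by chromosome and ordered by rank, each point 1 library. On the left the 4 IL-4 libraries sit above Untreated and DMSO at every site, and on the right they sit below both at 4 of the 6 sites. The order on the left is partly built in, since such sites pass the minimum signal only through IL-4 libraries.

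Sites higher with IL-4 were mostly of moderate width, and the widest sites were seldom among them. Of the members under 300 bp 6.74% were higher in both pairs, of those of 300 to under 600 bp 16.7% (15.9 to 17.4), of those of 600 to under 1000 bp 11.4% (10.9 to 11.9), of those of 1000 to under 1500 bp 3.55% (3.13 to 4.01) and of those of at least 1500 bp 2.99% (2.31 to 3.80). The share over all members was 10.7%. The shares of lower sites were 1.95%, 1.76%, 2.81%, 2.45% and 2.16% in the same classes. The median width was 617 bp for the sites higher in both pairs, 799.5 bp for those lower in both and 745 bp for all members. In the weakest classes of signal the share fell with width from 300 bp up, and in the stronger ones it did not fall steadily. At a signal of 3.2 to under 5, 18.8% of members of 300 to under 600 bp were higher in both and 1.24% of those of at least 1500 bp, and at 5 to under 10 the shares were 14.3% and 2.22%. At 10 to under 20 the share was 11.6% at 300 to under 600 bp, 4.10% at 1000 to under 1500 bp and 7.65% at 1500 bp or more. At 20 to under 50 it was 8.40% and 7.69% in the narrower and the widest of these classes, and at a signal of 50 or more 0 of 55 members of 300 to under 600 bp and 2 of 31 of at least 1500 bp were higher in both. With the minimum over the 2 libraries without IL-4 the shares were lower and flatter, at 4.03% for 300 to under 600 bp, 4.29% for 600 to under 1000 bp, 1.75% for 1000 to under 1500 bp and 1.98% for at least 1500 bp. The shares of lower sites were then 4.27%, 4.45%, 3.16% and 2.44% in these classes, and 3.78% under 300 bp. They fell with width only past the class of 600 to under 1000 bp.

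Under the minimum over 6 libraries, weak sites were called higher more often than strong ones. The share higher in both pairs was 12.4% at a mean signal of 3.2 to under 5, 10.6% at 5 to under 10, 6.52% at 10 to under 20, 6.78% at 20 to under 50 and 1.41% at 50 or more. The share lower in both was 2.68%, 2.32%, 1.49%, 2.82% and 0.565% in these classes. The order of the higher sites did not hold with the minimum over the 2 libraries without IL-4, where the shares higher in both were 0.0812%, 5.27%, 5.99%, 6.78% and 1.41%. The shares lower in both were then 4.71%, 2.504%, 1.499%, 2.82% and 0.565%, and 11.7% at a mean under 3.2, so that weak sites were called lower more often than higher. That minimum leaves out weak sites that are low without IL-4.

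**Figure D3:**
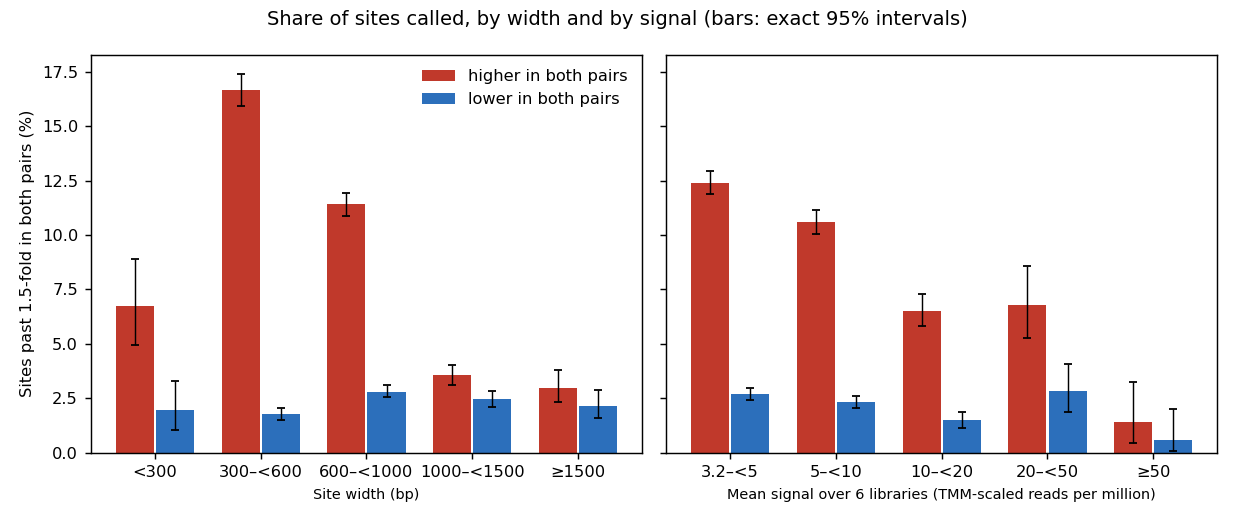
Percent of members past 1.5-fold in both pairs, by site width (left) and by mean signal over the 6 libraries (right), red for higher and blue for lower with IL-4, with 95% exact intervals that count sites only. The red bars peak at 16.7% for sites of 300 to under 600 bp and drop to 2.99% for the widest, and the blue bars stay under 3% throughout.

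A few wide and strong sites did rise. The widest site higher in both pairs, chr12:60135920-60140055 with 4136 bp, had a signal of 52.3 in Untreated against 83.5 in IL-4, 41.4 in DMSO against 88.8 in DMSO + IL-4, 100.0 with added latrunculin A and 151 with added MCSF. It rose 1.596-fold (1.47 to 1.73) without vehicle and 2.15-fold (1.95 to 2.36) with it. The next in width, chr1:33623883-33627997, rose 1.89-fold (1.69 to 2.13) and 1.96-fold (1.77 to 2.18), from 23.8 in Untreated to 45.0 in IL-4 and from 36.5 in DMSO to 71.6 in DMSO + IL-4. The third, chr13:58447638-58451290, rose 2.14-fold (1.82 to 2.54) and 1.52-fold (1.26 to 1.83), the latter just past the threshold. The highest signal among these sites was at chr8:26176920-26177794, with 65.8 in Untreated against 132 in IL-4, 69.0 in DMSO against 139 in DMSO + IL-4, 149 with added latrunculin A and 123 with added MCSF. Both its pairs gave a ratio near 2, at 2.01 (1.88 to 2.15) and 2.02 (1.87 to 2.17). At chr14:106562719-106563718 the ratios were 2.04 (1.87 to 2.22) and 1.71 (1.57 to 1.86).

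The strong lower sites were led by a site on chromosome 17. The site lower in both pairs with the most signal and the greatest width, chr17:39979963-39985749 with 5787 bp, had a signal of 589 in Untreated against 350 in IL-4, 574 in DMSO against 376 in DMSO + IL-4, 405 with added latrunculin A and 454 with added MCSF. It fell 1.68-fold (1.63 to 1.74) and 1.52-fold (1.47 to 1.58), and the latter was under 1.5-fold when scaled by total reads in sites, at -0.54 on the log2 scale, and with the trend with signal removed, at -0.52. Next in signal, chr6:3150716-3151747 fell 1.78-fold (1.64 to 1.92) and 1.73-fold (1.59 to 1.89), and chr3:5860271-5860887 fell 1.86-fold (1.68 to 2.06) and 1.72-fold (1.54 to 1.93). Of the 29 sites lower in both pairs with a mean signal of at least 20, 20 including this one kept within 0.5 log2 units of its profile over the 6 libraries, each relative to its own mean. They lay on 12 chromosomes, 16 of them were 300 to under 600 bp wide, and their log2 ratios ran from -1.14 to -0.69 and from -0.93 to -0.59. Of all 1313 members with a signal of at least 20, 180 were as close to that profile, but the 29 were chosen for falls in both pairs, which fixes part of the profile, so nothing is read from the difference. Reads could be aligned to several positions, and whether these sites hold the same reads was not tested. Other wide lower sites had another profile. At chr8:119083070-119086387 the signal was 9.97 in Untreated against 5.72 in IL-4, 13.4 in DMSO against 5.61 in DMSO + IL-4, 3.28 with added latrunculin A and 6.30 with added MCSF, with all 4 IL-4 libraries below both others, and at chr11:82743907-82746927 MCSF + IL-4 was the highest library at 28.7, against 21.9 in Untreated and 14.4 in IL-4.

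The peaks called in each library by the authors gave a second view of the same reads. A peak was present in both IL-4 libraries of the pairs and in neither control at 299 of the 3572 higher sites (8.37%), against 317 of all members (0.947%). At the lower sites the reverse was found at 17 of 794 (2.14%), against 77 of all members. Peaks in all 4 libraries were found at 82.9% of the higher and 91.4% of the lower sites, and at 94.8% of all members, so most called sites changed in level rather than in whether a peak was called. At higher sites with a peak in both libraries of a pair, the median log2 ratio of the peaks' fold enrichment was 0.80 in the vehicle-free pair and 0.64 in the DMSO pair, and at lower sites it was -0.65 and -0.63. Over all members with such peaks it was 0.018 and -0.085. Peaks and calls rest on the same reads, so these differences follow largely from the calls and are given as a description.

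The share of called sites varied between chromosomes. Sites higher in both pairs made up from 8.12% of members on chromosome 11 to 14.2% on chromosome 14. Sites lower in both ranged from 0.958% on chromosome 3 to 5.07% (4.11 to 6.18) on chromosome 11, where 93 of 1834 members were lower, against 2.22% of the members elsewhere. On chromosome 11 the median log2 ratio of all members was 0.04 in the vehicle-free pair and -0.16 in the DMSO pair, against 0.16 and -0.03 elsewhere.

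Neighbouring sites tended to move together, read in libraries that they do not share. A site's log2 ratio in the vehicle-free pair and its nearest neighbour's in the DMSO pair had the same sign for 58.4% (56.8 to 60.01) of members with a gap under 1 kb, 57.6% at 1 to under 5 kb, 55.0% at 5 to under 20 kb, 55.0% at 20 to under 100 kb and 52.4% (50.3 to 54.5) at 100 kb or more. The share was 55.8% over all members, and the shares of ratios above 0 in each pair would alone give 48.9% to 50.2% in these classes. The reverse reading takes a site in the DMSO pair and its neighbour in the vehicle-free pair. Its share was 58.8% under 1 kb, 53.1% at 20 to under 100 kb and 49.8% (47.7 to 51.9) at 100 kb or more. Among sites higher in the vehicle-free pair with a neighbour under 1 kb away, that neighbour was higher in the DMSO pair in 24.8% of cases (21.9 to 27.8), against 13.4% for all members with such a neighbour. At 20 to under 100 kb the values were 16.1% (14.4 to 17.8) and 13.3%. For sites lower in the vehicle-free pair, the neighbour was lower in the DMSO pair in 25% of cases (18.3 to 32.7) under 1 kb, against 8.62%, and in 9.40% (5.23 to 15.3) at 100 kb or more, against 9.01%. Across members, Pearson's r between a site's ratio in the vehicle-free pair and its neighbour's in the DMSO pair was 0.28 under 1 kb and 0.07 at 100 kb or more, a description over sites that share libraries. Neighbours under 1 kb apart can hold ends of the same fragments. Shares of equal sign also depend on how many ratios are above 0. Under 20 kb the share was 56.4%, where the shares of ratios above 0 in each pair would alone give 49.4%. With the controls of the pairs exchanged, an alternative chosen after seeing the data that moved the median log2 ratios to -0.13 and 0.26, these values were 49.1% and 44.8%.

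**Figure D4:**
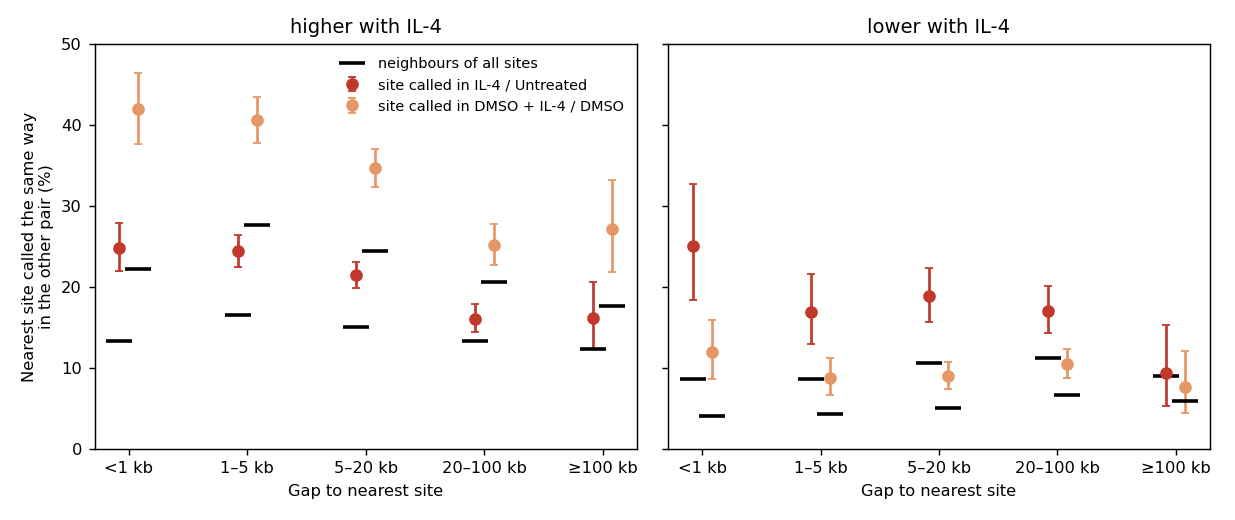
Percent of sites called in 1 pair whose nearest member is called the same way in the other pair, by the gap between them, for sites higher (left) and lower (right) with IL-4, with 95% exact intervals that count sites only and black bars for the neighbours of all members. For higher sites in the vehicle-free pair the share goes from 24.8% under 1 kb to 16.2% at 100 kb or more, and the black bars go from 13.4% to 12.3%.

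Higher sites lay closer to another member than lower sites did, with a median gap of 8211 bp against 16748 bp and 10926 bp for all members. When sites called the same way in both pairs were joined across gaps of at most 10 kb, the higher sites formed 41 clusters of at least 3 sites, which held 144 sites (4.03%), and 258 clusters of 2. The lower sites, fewer in number, formed 1 cluster of 3 and 14 of 2. Chromosome 14, with 4.43% of all members and 5.88% of the sites higher in both pairs, held 10 of the 41 clusters, with 41 sites. Most of these clusters lay in the stretches of that chromosome described below. Counting near-equal sites once left 38 clusters, and the minimum over the 4 libraries of the pairs left 18 and that over the 2 libraries without IL-4 left 3.

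The cluster with the most sites, 6 of 6 members higher in both pairs over 13.7 kb, was chr14:44574890-44588594. Its first site, chr14:44574890-44575377, had 18.5 normalized reads in Untreated against 209 in IL-4, 24.3 in DMSO against 181 in DMSO + IL-4, 336 with added latrunculin A and 261 with added MCSF. Its weakest change, at chr14:44576091-44576651, was a ratio of 1.69 (1.44 to 1.97) and 1.503 (1.28 to 1.76), from 215 in Untreated to 363 in IL-4 and from 280 in DMSO to 421 in DMSO + IL-4. Its DMSO ratio was under 1.5-fold under 3 of 5 other settings, at 0.57 to 0.58 on the log2 scale. A strong and a weak rise thus stood side by side. This cluster lay inside a stretch of 233 kb, chr14:44395336-44628630, in which 31 of 47 members were higher in both pairs and none lower, against 10.7% and 2.37% of all members. The stretch was drawn by joining sites higher in both pairs across gaps of at most 25 kb, so a high share and called sites at its ends are built in. The log2 ratio was above 0 at all 47 in the vehicle-free pair, from 0.38 to 3.43, and at 46 in the DMSO pair, from -0.34 to 3.12. All 4 IL-4 libraries were above both others at 46 of the 47. In this stretch 25 members, 16 of them higher in both pairs, had a partner within 500 kb whose normalized reads differed by at most 0.2 log2 units in each library, and 22 higher sites were left when such partners were counted once. Near-equal sites recurred along the stretch. Those starting at 44395336, 44451325, 44499408 and 44625510 had 339, 341, 326 and 304 reads in Untreated and 583, 558, 533 and 559 in IL-4. Weaker sites with similar reads can miss the limit of 0.2, so the 22 may still hold repeats. Those starting at 44418699 and 44473110 had 33 and 32 reads in Untreated and 74 and 70 in IL-4, but 32 and 25 in DMSO. Near-equal partners were found for 5.33% of all members and 2.97% of the sites higher in both. Whether partners hold the same reads, aligned to several positions, was not tested.

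**Figure D5:**
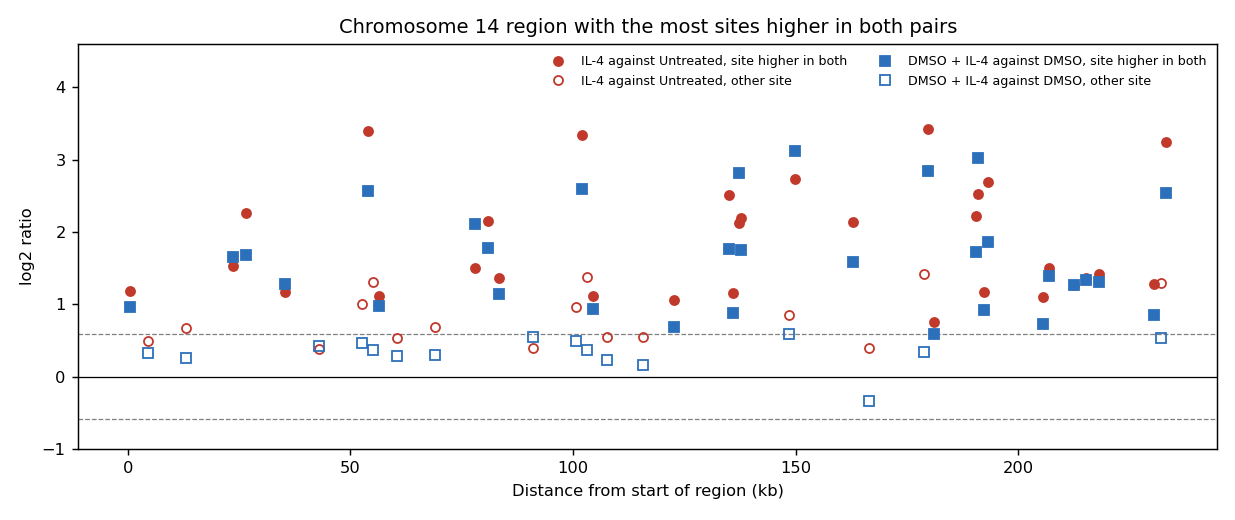
Log2 ratio of the 47 members in the 233 kb stretch on chromosome 14, by distance from its start, in the vehicle-free pair (circles) and the DMSO pair (squares), filled where the site was higher in both pairs, with dashed lines at 1.5-fold. The circles lie above 0 at all 47 sites and the squares at 46, and filled sites are spread along the whole stretch between open ones.

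In a second stretch of chromosome 14, chr14:51776395-51898549, drawn in the same way, 15 of 22 members were higher in both pairs and none lower, against the same shares of all members, and 2 had a near-equal partner. A cluster of 5 sites over 25.8 kb, chr1:193885483-193911310, held no other member. Its changes were uneven along its length. The site chr1:193905488-193905799 had 5.18 normalized reads in Untreated against 67.7 in IL-4, 7.204 in DMSO against 47.0 in DMSO + IL-4, 112 with added latrunculin A and 65.6 with added MCSF, ratios of 13.1 (6.02 to 33.7) and 6.53 (3.0 to 16.2). The strongest site of the cluster, chr1:193902225-193902864, had 139 in Untreated against 249 in IL-4, and 183 in DMSO against 326 in DMSO + IL-4, ratios of 1.79 (1.48 to 2.18) and 1.78 (1.48 to 2.15). At chr14:47970540-47993690, 5 of 6 members were higher in both, and the sixth, chr14:47979314-47979615, had ratios of 0.982 (0.624 to 1.53) and 1.05 (0.654 to 1.66). This site was not called, and its intervals reach past 1.5-fold. The fourth cluster, chr14:44600436-44613659, also lay in the 233 kb stretch.

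The single cluster of 3 lower sites, chr7:149573328-149584382, spanned 11.1 kb with 4 members. Its site chr7:149576004-149576541 had 101 normalized reads in Untreated against 39.3 in IL-4, 126 in DMSO against 66.8 in DMSO + IL-4, 85.4 with added latrunculin A and 72.6 with added MCSF. All 4 IL-4 libraries lay below both others, and the falls were 2.56-fold (1.79 to 3.74) and 1.89-fold (1.37 to 2.63). A pair of adjacent lower sites on chromosome 10 began at chr10:116712467-116713551, with 238 in Untreated against 111 in IL-4, 323 in DMSO against 130 in DMSO + IL-4, 117 with added latrunculin A and 93.7 with added MCSF. Its partner, chr10:116713749-116714333, had 123, 40.2, 156, 55.7, 44.3 and 23.4 in the same order. At both, each of the 4 IL-4 libraries had less than each library without IL-4. In the pair at chr4:130488565-130491744 the first site fell 2.56-fold (1.86 to 3.57) without vehicle and 7.22-fold (4.08 to 13.9) with it.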

How the data were processed

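ATAC-seq was performed on 6 BMDM libraries, 1 per group, grouped by the treatment given in the labels. Per the study's methods, reads were trimmed with Cutadapt, aligned with Bowtie2 to mm9 with several alignments per read allowed, cleared of duplicates (Picard), blacklisted and mitochondrial reads, and peaks were called per library with macs2; versions are not given in the sources used here. In the deposited site table the authors give signal, featureCounts reads scaled with TMM in edgeR. Values came in steps of 1 read, from which whole reads were recovered for 100% of values (tolerance 0.01 of a read), and no per-sample column was left out. The deposited peak lists hold the authors' fold enrichment over local background, used to describe peaks, and a −log10 q-value, which was not used further. A read aligned to several positions is counted at more than 1 site in repeated DNA, and scaling by TMM assumes that most sites keep their level.

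Normalized reads are the recovered reads over the effective library size, times the geometric mean of the sizes. A log2 ratio of normalized reads, with 1 added, was called past 1.5-fold, the threshold of the study's methods. Depth was 12387332 to 19889902 reads in sites. Shares have exact (Clopper-Pearson) 95% intervals, and ratios of reads have exact intervals without the added read. Both cover only the error of counting, and reads that carry no molecular identifier are not independent molecules. Without replicates the pairs themselves have no test. In a fit added later, IL-4 and vehicle were terms of edgeR 4.0.16's quasi-likelihood model (R 4.3.3) on the recovered reads of all sites with a read in the 4 libraries of the pairs, with library sizes recovered from the deposited signal. The nearest member was taken by the gap between site edges. Python 3.11.15, numpy 2.4.6, pandas 2.3.3 and scipy 1.17.1 were used, and the scripts were tested on simulated data.

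Sites are named by this rule, on autosomes other than 18. Named were the 8 higher and 6 lower sites in both pairs with the best limit, the 3 widest and the 3 with most signal in each direction, the 4 clusters with the most higher and the 3 with the most lower sites, and the 2 sites with the largest opposite ratios in each order. The first sites inside and outside the minimum, the second stretch of chromosome 14, the recurring sites in the first stretch and the group of strong lower sites were added after their values were seen. The members, lists and classes were chosen with earlier results of these data known. Sites on chromosome 1 reached 197195351, beyond the 195471971 bp of that chromosome in GRCm38, so that genome was not used. Alternatives were other added reads, scalings, minimum signals, folds and gaps, a trend correction, and the strongest sites left out.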

Additional observations from a re-analysis of the deposited data

Results flagged for a closer look

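The pairs moved in opposite directions past 1.5-fold at 310 sites, 202 higher with IL-4 in the vehicle-free pair and lower in the DMSO pair, and 108 the other way round. With 1 library per group the difference between the pairs was not tested. These sites had a median width of 950.5 bp and a median signal of 4.05, and 92 of them passed 2-fold in both directions. At chr16:31026208-31027461 there was 1 read in Untreated against 49 in IL-4, 51 in DMSO against 1 in DMSO + IL-4, 99 with added latrunculin A and 155 with added MCSF. At chr17:8149144-8150396 the reads were 21, 116, 59, 4, 88 and 139 in the same order. In the other direction, chr5:72906153-72907463 had 151 reads in Untreated against 2 in IL-4, 11 in DMSO against 60 in DMSO + IL-4, 50 with added latrunculin A and 103 with added MCSF, and chr6:139669754-139670738 had 145, 20, 23, 93, 31 and 29. Untreated and DMSO, which differ in vehicle only, were on opposite sides at each of these 4 sites.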

How the results depend on the processing

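With 1 library per group, leaving one out removes its group, and this was not run. The fit with the vehicle as a block gave 3090 members higher and 541 lower, within 1.5 times of the counts in both pairs, and 6575 and 3038 at an unadjusted p under 0.05. The counts are given as higher and lower in the vehicle-free pair, higher and lower in the DMSO pair, and higher and lower in both, where they moved by over 1.5 times. At 2-fold they were 3393 and 390, 2128 and 695, and 1556 and 68, with 92 opposite sites, 12 clusters and 1772 vehicle calls against 9675 over both vehicle comparisons. A minimum signal of 6.4 gave 2302 and 475, 1239 and 1087, and 1026 and 243, with 52 opposite sites, 6 clusters, 2945 sites with all 4 IL-4 libraries above both others and 2461 vehicle calls. A minimum of 1.6 gave 19775 and 6879, 14794 and 10882, and 8813 and 2101, with 1798 opposite sites, 204 clusters, 18454 sites with all 4 above and 36711 vehicle calls. With no filter on signal they were 132985 and 119039, 133453 and 128683, and 47291 and 36725, with 59076 opposite sites, 2441 clusters, 57529 sites with all 4 above and 476251 vehicle calls. These alternatives change the number of sites by construction.

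The minimum over the 4 libraries of the pairs gave 2266 sites higher in both and 18 clusters. The minimum over the 2 libraries without IL-4 gave 3265 and 1552 higher sites in the pairs, 949 higher in both, 3 clusters and 3984 sites with all 4 above. Removing the trend with signal gave 3466 lower sites in the vehicle-free pair, and a gap of 25 kb gave 102 clusters. With the controls of the pairs exchanged, IL-4 against DMSO gave 3822 higher and 5633 lower sites and DMSO + IL-4 against Untreated 9603 and 1390, while 3062 and 558 were called in both, 2685 and 355 of them called before.

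The share higher in both at 300 to under 600 bp, 16.7%, was 7.66% at 2-fold, 15.4% with 5 reads added, 13.9% with exchanged controls, 12.0% with the minimum over 4 libraries, 4.03% with that over 2, 15.7%, 11.9% and 8.80% with a minimum of 1.6, of 6.4 and with none, 18.01% scaled by total reads in sites, 15.5% scaled by reads outside the strongest sites and 15.0% without the trend. The share at a signal of 5 to under 10, 10.6%, was 4.33% at 2-fold, 9.97% with 5 reads added and also without the trend, 8.97% with exchanged controls, 5.27% with the minimum over the libraries without IL-4, 9.69% with a minimum of 6.4, 11.5% scaled by total reads in sites and 9.88% scaled by reads outside the strongest. The share of neighbours under 20 kb of equal sign, 56.4%, was 49.1% with exchanged controls, 58.1% scaled by total reads in sites, 58.0% without the trend, 57.2% with a minimum of 6.4, 53.8% with one of 1.6, 51.2% with no filter and 55.5% with the minimum over the libraries without IL-4. The cause of these shifts was not tested.

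The 58 sites that the naming rule takes, cluster members included, were read under 5 other settings of scaling, added reads or trend. Of 580 values 8 fell under 1.5-fold, all in the DMSO pair, 3 at chr14:44576091-44576651, 2 at chr17:39979963-39985749 and 1 each at chr13:58447638-58451290, chr11:82743907-82746927 and the chromosome 7 cluster of lower sites, and none reversed or was newly called. The vehicle block, exchanged controls, the minimum over the libraries without IL-4 and near-equal sites counted once were chosen after seeing the data. At the minimum signal a library holds 39.9 to 66.8 reads, so small ratios at weak sites were not detectable at this depth.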
